A study of Homo sapiens with 8 samples.

Results

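Fibroblast growth factor (FGF) signalling was examined through 10 genes: the ligands FGF19, FGF9, FGF2 and FGF18, the receptors FGFR1, FGFR2, FGFR3 and FGFR4, the co-receptor KLB and the carrier protein FGFBP1. They were chosen by name, 10 of the 19775 genes measured, and each was read through the probe set that names it alone and has the highest mean over all 8 arrays. FGF19 and FGF9 were singled out because of their changes in these samples, so their values are given as a description, without a test. The arrays fall into 4 groups of 2: HT29 parental cells, HT29 cells grown as 1st spheres, an SW480 stable line treated with a vector control, and an SW480 stable line labelled as Snail expressing. HT29 and SW480 are established human colon cancer lines. Parental HT29 cells and both SW480 lines grew in DMEM with 10% fetal bovine serum. The sphere medium was DMEM-F12 with N2 Plus Supplement, 10 ng/ml recombinant bFGF, the protein product of FGF2, 10 ng/ml EGF and penicillin-streptomycin, and no serum is listed for it. Spheres therefore differed from parental cells in growth form, serum and added growth factors together, which cannot be told apart. The labels give neither the promoter that drives Snail nor whether a stable line is 1 clone, and nothing in them ties partner arrays to separate cultures. A p-value here measures spread among arrays, possibly technical spread only.

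Most FGFs are secreted, bind heparan sulfate near the cell that makes them, and activate receptor tyrosine kinases that signal through RAS and ERK. FGF19 belongs to the endocrine branch, which binds heparan sulfate weakly and needs a Klotho protein as co-receptor. It is made by the ileal epithelium when bile acids activate the nuclear receptor FXR, and in the liver it acts through FGFR4 and beta-Klotho, the product of KLB, to repress bile acid synthesis. FGF9 and FGF18 are paracrine ligands that act mainly between epithelium and mesenchyme, and FGFBP1 releases stored FGFs from the matrix.

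Values are on the log2 scale of the deposited table, so a difference of 1 is a 2-fold change, and a level of one gene cannot be set against that of another. Array medians lay between 5.5 and 5.61 log2. Partner arrays correlated at 0.991 to 0.995 over all genes, and the parental pair had 200 genes at least 2-fold apart against 10 to 19 in the other pairs. SNAI1, which encodes Snail, read 6.36 and 6.34 in vector cells and 6.32 and 6.38 on the arrays labelled Snail, a difference of 0.00 ± 0.15 log2 (SE; limma adjusted p = 0.99). The label was therefore not borne out by this probe set, and every direction given for the SW480 arrays labelled Snail rests on the label. Whether this probe set reads the transcript of the Snail construct was not tested, so these values do not show that the construct was silent. In HT29 cells the same probe set averaged 6.01 on parental and 7.07 on sphere arrays. The sphere level was the highest of the 4 groups (sphere difference 1.07 ± 0.15; limma adjusted p = 0.00032). The 12 colon epithelial markers averaged 10.18 to 10.26 log2 on parental arrays, 11.14 to 11.15 on sphere arrays, 8.13 to 8.27 on vector arrays and 8.26 to 8.31 on the arrays labelled Snail. In spheres 5 of these markers were higher, 1 lower and 6 did not pass by limma, and their median change of 0.07 log2 was far below the shift of their mean. In SW480 vector cells 8 were lower than in parental cells, 1 higher and 3 did not pass, with 23.5% of all genes lower, and KRT20 (4.42) and LGALS4 (4.73) lay there below every array median. The 17 measured markers of other cell types averaged 5.33 to 5.40 in parental cells and 5.65 to 5.80 in spheres. There 3 were higher by limma (LUM, PECAM1 and CD3E), 0 were lower and 14 did not pass, beside 12.4% of all genes higher. On the SW480 arrays the 17 markers averaged 5.27 to 5.29. The BioC hybridisation control was 1.64 log2 higher on sphere than on parental arrays, and the other such controls differed by 0.32 or less. On the arrays labelled Snail the ribosomal RNA control probe sets were higher than in vector cells, by 1.40 for 18S and 0.94 for 28S. The hybridisation controls were lower there, with differences of -0.52 (BioC), -0.44 (BioD), -0.33 (BioB) and -0.25 (Cre). The part of these shifts in the results on FGF genes was not tested.

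In HT29 spheres FGF19 and FGF9 were lower than in parental cells on both arrays, FGFR2 was lower as well, and FGF18, KLB and FGFBP1 were higher. Of the 8 members that were tested, 3 were higher (FGF18, KLB, FGFBP1), 2 lower (FGFR2, FGFR4) and 3 did not pass at a limma adjusted p under 0.05. Over all 19775 genes 31.4% were called in this comparison, 12.4% as higher and 19.0% as lower. The median change over the 10 members was 0.15 log2, against 0.04 over all genes. It counts FGF19 and FGF9, singled out for their changes, so it does not describe a shift of the family.

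On the SW480 arrays labelled Snail, FGF19 and FGF9 were higher than in vector cells, the opposite direction to spheres. Of the 8 tested members only FGFR2 passed, as higher, and 7 did not, while 16.2% of all genes were called (8.91% higher, 7.34% lower). Called genes numbered 3213 with all arrays and 1447 to 1602 without vector array 1 or 2 or the first or second array labelled Snail. The median change over the 10 members, again counting FGF19 and FGF9, was 0.03, against 0.01 over all genes.

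Between the lines, of the 8 tested members, 2 were higher in SW480 vector than in HT29 parental cells (FGF18, FGFR1), 3 were lower (FGFR2, FGFR3, FGFR4) and 3 did not pass, where 46.1% of all genes were called (22.6% higher, 23.5% lower). The median over the 10 members was -1.01, against 0.07 over all genes. It too counts the untested FGF19 (-2.25) and FGF9 (-3.13), so it does not describe a shift of the family. This comparison shares its parental arrays with the sphere comparison and its vector arrays with the Snail comparison, so its values are not independent of theirs. Whether a member's change differed between spheres and the line labelled Snail was tested directly, and 4 members differed upward (FGF18, FGFR3, KLB, FGFBP1) and 1 downward (FGFR2), against 27.5% of all genes called in that test (10.6% higher, 16.9% lower). The 5 became 3 without sphere array 2, vector array 2 or either array labelled Snail.

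**Figure D1:**
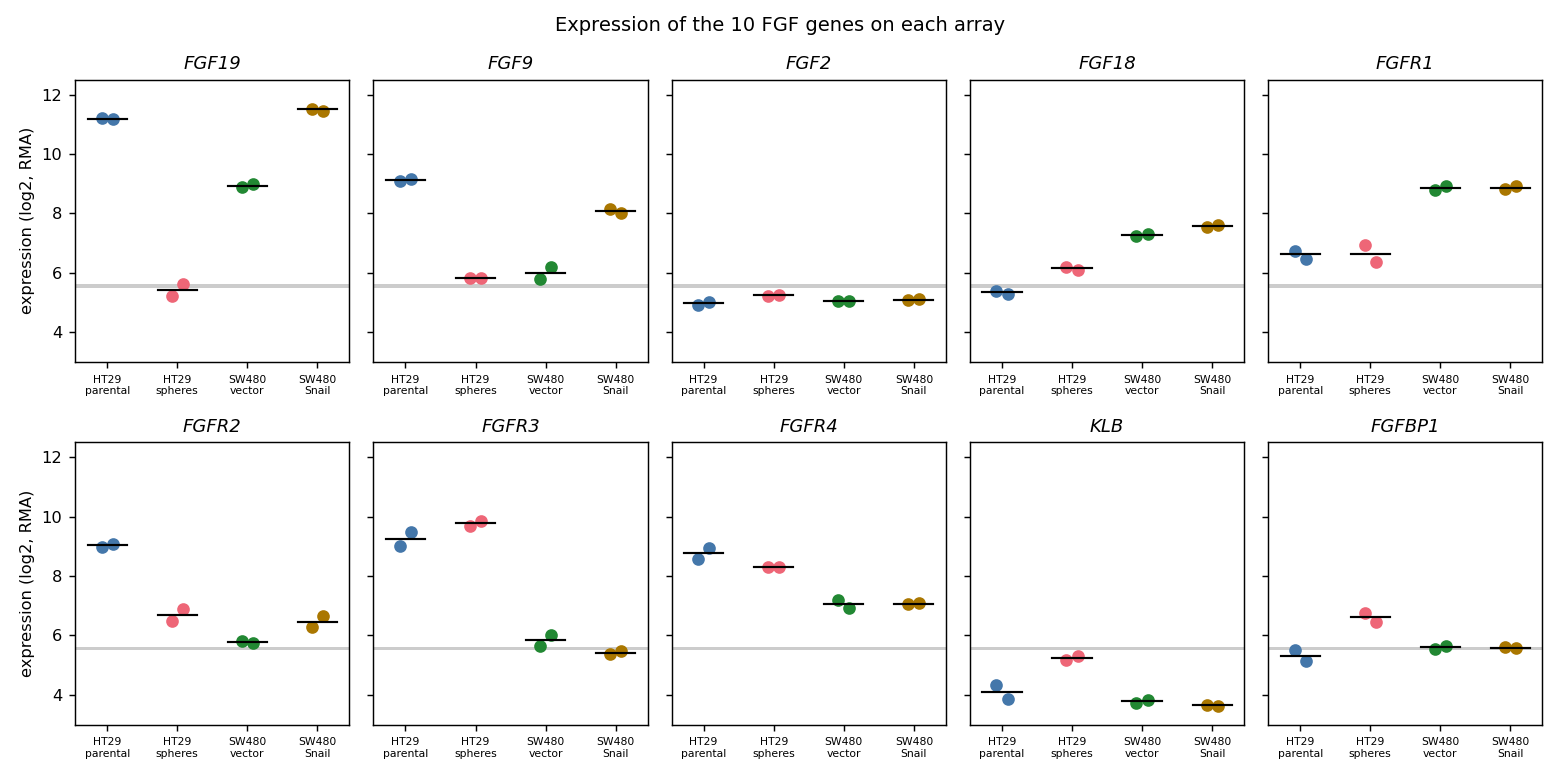
Expression of each of the 10 genes on every array (points; y axis, log2 RMA value) in the 4 groups, with the group mean as a black bar and the range of the 8 array medians (5.5 to 5.61) as a grey band. FGF19 and FGF9 are low in HT29 spheres and higher on the SW480 arrays labelled Snail than on the vector arrays, while FGF2 and KLB lie below the band on all arrays.

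FGF19, the endocrine ligand, had the widest range of the 10 genes. It read 11.20 and 11.17 log2 on the 2 parental arrays and 5.23 and 5.63 on the 2 sphere arrays. The sphere values lie on either side of the array medians, and the parental values far above them. The group means fell by 5.75 log2, from 11.18 ± 0.02 to 5.43 ± 0.28 (SD, n = 2), which is 54.0-fold. Detection against background was not measured, so the size of a fall that ends near the array medians is that of the deposited values only. In SW480 vector cells FGF19 read 8.88 and 9.0, and on the arrays labelled Snail 11.53 and 11.46. The groups did not overlap, and the difference of 2.56 log2 is 5.90-fold. The order of the group means was therefore the line labelled Snail, HT29 parental, SW480 vector and HT29 spheres, with no overlap between neighbours. The top of that order was close: the line labelled Snail stood 0.31 above HT29 parental cells. As these are bulk samples, fewer cells with a transcript and less of it per cell cannot be told apart.

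FGF9, a heparan-binding paracrine ligand, followed the same directions. Parental arrays read 9.09 and 9.17, and both sphere arrays read 5.82, a fall of 3.31 log2 or 9.93-fold. In SW480 vector cells the arrays read 5.80 and 6.21, and those labelled Snail 8.15 and 8.0, a difference of 2.07 log2 or 4.20-fold. Spheres and vector cells overlapped, and the other neighbours in the order did not: HT29 parental cells were highest, followed by the line labelled Snail. A second, dimmer FGF9 probe set averaged 7.37 for parental cells, 3.23 for spheres, 3.10 for vector cells and 5.27 on the arrays labelled Snail. It moved the same way in each comparison, by -4.13 in spheres, 2.17 in the line labelled Snail and -4.27 between the lines. FGF19 has a single probe set, so no such check was made for it. Over the 8 arrays FGF19 and FGF9 correlated at 0.84 (Pearson), a description over points that share cell line and culture.

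FGF2 encodes the growth factor that was added to the sphere medium as protein. Its arrays read 4.93 and 5.01 in parental cells and 5.23 and 5.25 in spheres, and 5.04 to 5.11 on the SW480 arrays. All 8 values lay below every array median. The sphere difference of 0.27 ± 0.12 log2 (SE) did not pass (limma adjusted p = 0.11; 95% interval 0.01 to 0.53), and the other FGF2 probe set differed by -0.44. In the line labelled Snail the FGF2 difference was 0.05 ± 0.12 (limma adjusted p = 0.83).

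FGF18, a paracrine ligand of the FGF8 subfamily, was lowest in parental HT29 cells. Its arrays read 5.40 and 5.27 there, 6.20 and 6.11 in spheres, 7.24 and 7.29 in vector cells, and 7.53 and 7.60 on the arrays labelled Snail. All 4 groups were separate. The sphere rise of 0.82 ± 0.12 log2 passed (limma adjusted p = 0.00052), as did the 3.81-fold higher level in vector than in parental cells (1.93 ± 0.12; limma adjusted p = 5.5e-07). The Snail difference of 0.30 ± 0.12 did not (limma adjusted p = 0.13). The changes differed by 0.52 ± 0.17 (limma adjusted p = 0.046), a call that held without parental array 1 and was lost without any of the other 7 arrays (0.46 to 0.57; limma adjusted p 0.072 to 0.13). The sphere rise depended on the probe set: across the 6 FGF18 probe sets the change ran from -0.45 to 0.82, with 1 higher and 1 lower, and their mean changed by 0.16 (limma adjusted p = 0.26). The higher level in SW480 was called for 4 of the 6.

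**Figure D2:**
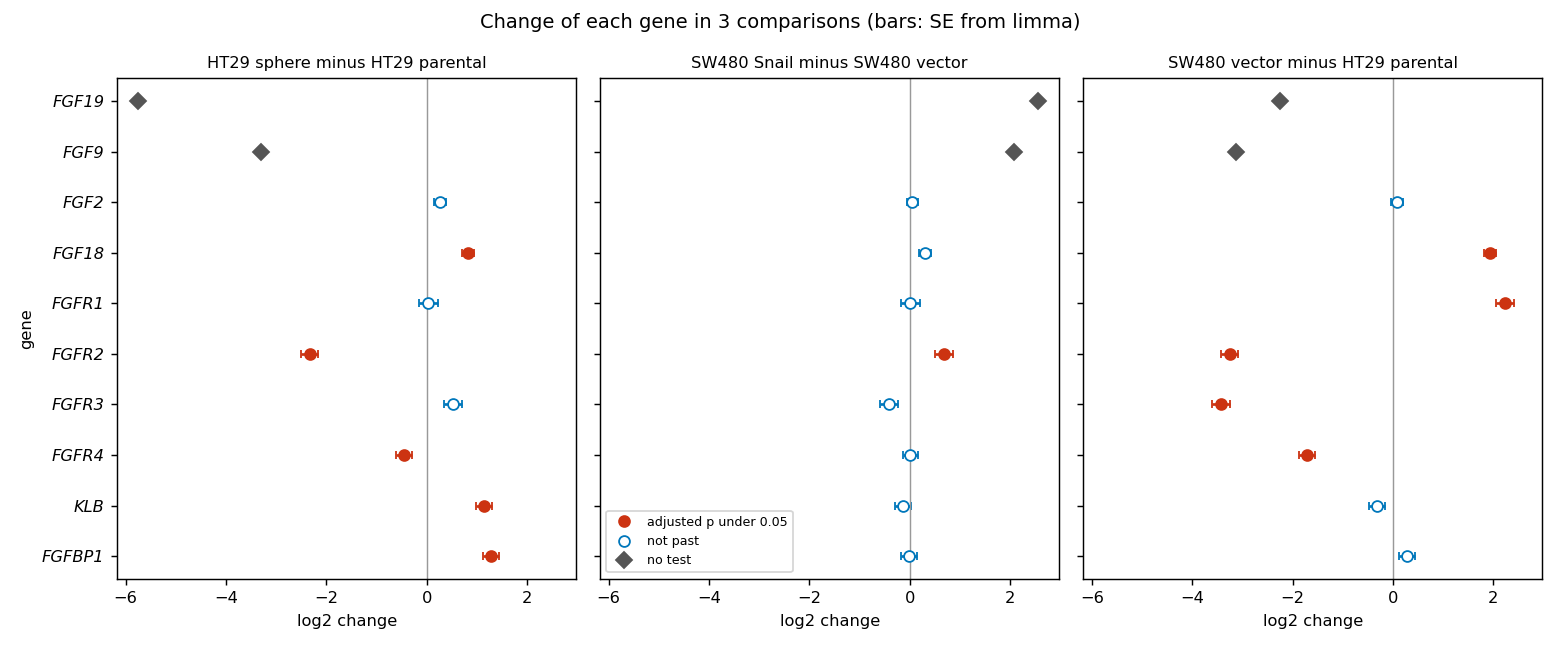
Log2 change of each gene (rows) in 3 comparisons (panels), with the limma SE as a bar; filled circles passed an adjusted p under 0.05, open circles did not, and diamonds (FGF19, FGF9) were not tested. FGFR2 lies at -2.33 in spheres and at 0.68 in the line labelled Snail, and FGFR1 near 0 in both but at 2.24 between the lines.

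The receptors set the lines apart. FGFR1, the receptor bound by FGF2 in many mesenchymal cells, read 6.75 and 6.48 in HT29 parental cells and 8.79 and 8.91 in SW480 vector cells, which is 4.71-fold higher in SW480 (2.24 ± 0.19; limma adjusted p = 4.2e-06). Neither culture form nor the Snail label moved it past the threshold. Spheres read 6.94 and 6.36, overlapping with parental cells, and differed by 0.03 ± 0.19 (limma adjusted p = 0.92; 95% interval -0.38 to 0.44). The arrays labelled Snail read 8.81 and 8.92 and differed from vector cells by 0.01 ± 0.19 (limma adjusted p = 0.98; 95% interval -0.40 to 0.42). Of 7 FGFR1 probe sets, 5 were called higher in SW480 vector cells and 0 lower. A single probe set of the 7 was called in the line labelled Snail, as lower, at -0.65 (limma adjusted p = 0.011).

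FGFR2, whose epithelial splice form receives FGFs from the mesenchyme, was highest in HT29 parental cells. It read 8.99 and 9.08 there and 6.50 and 6.90 in spheres, a fall of 2.33 ± 0.17 log2 or 5.04-fold (limma adjusted p = 6.7e-06). The fall was larger than the gap between partner arrays, which was at most 0.40. In SW480 vector cells FGFR2 read 5.82 and 5.75, 9.53-fold below HT29 parental cells (-3.25 ± 0.17; limma adjusted p = 1.5e-07). The arrays labelled Snail read 6.27 and 6.66, which is 0.68 ± 0.17 above vector cells (limma adjusted p = 0.024) and overlaps with the spheres. That small rise was not stable. It was lost without vector array 1 (0.72; limma adjusted p = 0.088), vector array 2 (0.64; 0.12) or the second array labelled Snail (0.48; 0.19), and with the mean of the FGFR2 probe sets (0.10; 0.60). The changes in spheres and in the line labelled Snail differed by -3.01 ± 0.24 (limma adjusted p = 2.4e-05).

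Among the 11 FGFR2 probe sets, 5 had means above every array median. In spheres 4 of the 11 were lower and 0 higher, with changes from -2.33 to 0.03, and 6 were lower in SW480 vector than in HT29 parental cells. Only 1 was higher on the arrays labelled Snail. The probe sets near 0 in spheres were mostly dim. The deposited values do not say which splice forms the probe sets read.

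**Figure D3:**
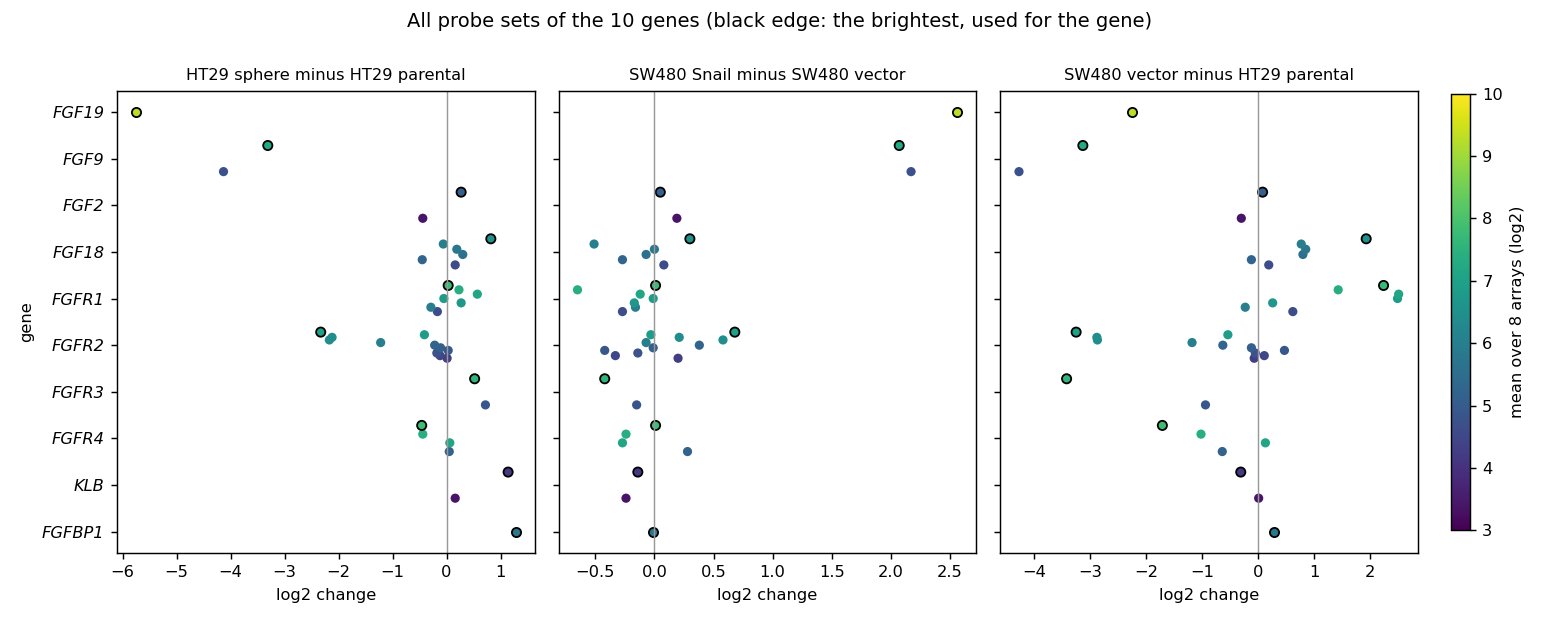
Log2 change of all 38 probe sets of the 10 genes in 3 comparisons (panels, with different x scales), coloured by mean level over the 8 arrays; a black edge marks the probe set used for the gene. The 4 FGFR2 probe sets called lower in spheres lie between -2.33 and -1.22 and most of the others near 0, and the FGF18 probe sets spread on both sides of 0.

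FGFR3, a receptor of FGF9 and FGF18, was high in HT29 cells and low in SW480 cells. It read 9.02 and 9.50 for parental cells, 9.70 and 9.87 for spheres, 5.66 and 6.03 for vector cells, and 5.38 and 5.47 on the arrays labelled Snail. The 10.7-fold lower level in vector than in parental cells (-3.42 ± 0.18; limma adjusted p = 1.5e-07) was the largest difference between the lines among the tested members. The sphere difference of 0.52 ± 0.18 stood just outside the threshold (limma adjusted p = 0.051). It passed without parental array 2 (0.76; limma adjusted p = 0.014) and without either vector array (0.52; 0.048), and the second FGFR3 probe set rose by 0.72 (0.032). On the arrays labelled Snail the difference was -0.42 ± 0.18 (limma adjusted p = 0.16; 95% interval -0.82 to -0.02). The 2 changes differed by 0.94 ± 0.26 (limma adjusted p = 0.020), a call lost without parental array 1, sphere array 2, vector array 2 or either array labelled Snail (0.70 to 0.99; limma adjusted p 0.052 to 0.081).

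FGFR4, the main receptor of FGF19 in liver, was also higher in HT29 than in SW480 cells. Parental arrays read 8.58 and 8.96, spheres 8.32 and 8.30, vector cells 7.20 and 6.92, and the arrays labelled Snail 7.05 and 7.09. Vector cells were 3.27-fold below parental cells (-1.71 ± 0.16; limma adjusted p = 8.5e-06), and both SW480 groups overlapped, with a difference of 0.01 ± 0.16 (limma adjusted p = 0.98; 95% interval -0.34 to 0.36). The sphere difference of -0.46 ± 0.16 stood just inside the threshold (limma adjusted p = 0.048). It held without parental array 1 (-0.65; 0.013) and was lost without any other array: parental array 2 (-0.27; limma adjusted p = 0.24), sphere array 1 (-0.46; 0.15), sphere array 2 (-0.45; 0.14), either vector array (-0.46; 0.051) or either array labelled Snail (-0.46; 0.072). With all probe sets fitted together, 1 of the 4 FGFR4 probe sets was called lower in spheres, and it was not the one used for the gene (-0.44, limma adjusted p = 0.032, against -0.46, 0.057, for the one used). Between the lines 3 of the 4 were lower in SW480 vector cells.

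FGFR2, FGFR3 and FGFR4 shared their direction between the lines, so the sequence before their transcription starts is shown, with the Snail family's E-box (CAGGTG, or CACCTG on the other strand) in capitals where it occurs. Each window is the 250 bases before the start of the most upstream transcript listed for the gene in RefSeq (GRCh38.p14), 5′ to 3′ on the gene's strand. The windows are chr10:121598445-121598694 (minus strand) for FGFR2, chr4:1793043-1793292 (plus strand) for FGFR3 and chr5:177086665-177086914 (plus strand) for FGFR4.
FGFR2: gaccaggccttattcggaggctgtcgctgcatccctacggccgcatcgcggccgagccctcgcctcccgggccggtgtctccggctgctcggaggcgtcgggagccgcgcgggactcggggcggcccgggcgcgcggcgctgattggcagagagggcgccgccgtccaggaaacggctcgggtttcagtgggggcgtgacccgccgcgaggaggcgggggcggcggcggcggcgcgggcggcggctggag
FGFR3: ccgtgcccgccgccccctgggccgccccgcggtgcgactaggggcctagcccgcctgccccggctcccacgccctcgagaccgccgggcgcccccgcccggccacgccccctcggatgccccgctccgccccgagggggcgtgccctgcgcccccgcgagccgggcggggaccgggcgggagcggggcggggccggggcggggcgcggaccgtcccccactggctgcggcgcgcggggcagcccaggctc
FGFR4: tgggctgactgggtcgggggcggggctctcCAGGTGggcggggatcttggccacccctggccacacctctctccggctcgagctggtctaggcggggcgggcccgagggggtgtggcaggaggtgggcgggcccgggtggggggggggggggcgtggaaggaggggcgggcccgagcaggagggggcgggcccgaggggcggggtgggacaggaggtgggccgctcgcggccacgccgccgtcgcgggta

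All 3 windows are rich in G and C (78.4%, 86.8% and 79.6%). They hold 3, 8 and 7 matches to the GC box GGGCGG on either strand. Of 35116 RefSeq windows of this length, 42.6% hold it at least once. These traits are not particular to the 3: the FGF18 window (78.8%, 3 matches) and the FGF2 window (75.2%, 3) share them. Between the lines FGF18 went the other way and FGF2 did not pass. The other FGFR2 windows have 42.8% to 50% G and C, and the other FGFR4 window 57.2%. The E-box occurs in the FGFR4 window shown, 220 bases before the start, and in neither the FGFR2 nor the FGFR3 window shown. Of the 5 FGFR2 windows listed, 1 holds it. Of the 2 FGFR4 windows only the one shown does, and 17.5% of all windows do. The AP-1 motif TGANTCA, found in 6.57% of all windows, occurs in none of the 12 windows of the 7 members that matched the table (FGF2, FGF18, FGFR2, FGFR3, FGFR4, KLB and FGFBP1). A match describes the letters only.

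KLB, the co-receptor that FGF19 needs, was dim throughout. It read 4.32 and 3.86 for parental cells, 5.16 and 5.30 for spheres, 3.73 and 3.83 for vector cells, and 3.65 and 3.64 on the arrays labelled Snail, all below every array median. Spheres stood apart from the other groups, at 1.14 ± 0.16 above parental cells (limma adjusted p = 0.00033). The second KLB probe set differed by 0.16 (limma adjusted p = 0.52). The Snail difference was -0.14 ± 0.16 (limma adjusted p = 0.63; 95% interval -0.49 to 0.21), and the sphere and Snail changes differed by 1.28 ± 0.22 (limma adjusted p = 0.0019). Between the lines the difference of -0.31 ± 0.16 (limma adjusted p = 0.14) passed only without parental array 2 (-0.54; 0.013).

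FGFBP1, the secreted carrier, rose in spheres. It read 5.51 and 5.14 in parental cells and 6.76 and 6.46 in spheres, a 2.43-fold rise (1.28 ± 0.16; limma adjusted p = 0.00016). Vector cells read 5.56 and 5.65 and the arrays labelled Snail 5.61 and 5.57, which overlap (difference -0.01 ± 0.16; limma adjusted p = 0.97; 95% interval -0.37 to 0.34). Between the lines the difference was 0.28 ± 0.16 (limma adjusted p = 0.18), and it passed only without parental array 1 (0.47; 0.042). Its sphere and Snail changes differed by 1.30 ± 0.23 (limma adjusted p = 0.0018). The related carriers FGFBP2 and FGFBP3 did not pass in any of the 3 comparisons, and both lay below every array median on all arrays.

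The list counts that follow stand beside the shares of all genes called. These were 12.4% higher and 19.0% lower in spheres, and 8.91% and 7.34% in the line labelled Snail. Between the lines they were 22.6% and 23.5%. Of the 22 measured FGF genes, 8 lay below every array median on all arrays, FGF2 among them, so a change in those could be missed. Among the 18 FGF genes that are not members, 0 passed in spheres by limma in either direction (2 higher and 0 lower at an unadjusted p under 0.05). Their median change was 0.21 log2. When either parental array was left out, 1 passed as higher. In the line labelled Snail 2 were higher and 0 lower. FGF3, a paracrine ligand, averaged 4.60 for parental cells, 4.62 for spheres, 6.99 for vector cells and 8.95 on the arrays labelled Snail, a rise of 1.96 ± 0.12 over vector cells (limma adjusted p = 1.6e-05). FGF13, an intracellular homologue that binds sodium channels, rose by 1.02 ± 0.12 (limma adjusted p = 6.0e-04). Between the lines 7 of the 18 were higher in SW480 vector cells and 0 lower, led by FGF13 (3.04), FGF20 (2.62) and FGF3 (2.40). With array medians subtracted 5 were higher and 1 lower, and with quantile normalisation 5 and 0. Both counts also moved when single arrays were left out. The decoy receptor gene FGFRL1 fell by 0.98 ± 0.13 in spheres (limma adjusted p = 0.00023) and was 1.39 lower in SW480 vector than in HT29 parental cells. The Klotho gene KL did not pass in any of these comparisons, and it lay below every array median on all arrays.

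Target and feedback genes of the pathway are known to be induced by ERK signalling. Of 15 measured, 8 fell in spheres, 0 rose (0 also at an unadjusted p under 0.05) and 7 did not pass by limma. Over all genes 19.0% were called lower, and the list's median was -0.46 against 0.04. Without sphere array 1 the count fell to 3, and without any other array it was 6 to 8. The ETS factors led: ETV5 averaged 9.39 in parental cells and 7.06 in spheres (-2.32 ± 0.16; limma adjusted p = 3.6e-06), ETV1 fell by 1.90 ± 0.17 (limma adjusted p = 2.2e-05) and ETV4 by 0.79 ± 0.15 (limma adjusted p = 0.0025). In the line labelled Snail 3 rose, 0 fell and 12 did not pass, with a median of 0.29. These were the receptor kinase antagonists SPRY1 (1.23 ± 0.19; limma adjusted p = 0.0021), SPRY2 (0.67 ± 0.15; 0.012) and SPRED1 (0.66 ± 0.18; 0.030). That count was 1 without vector array 1, vector array 2 or the first array labelled Snail. Between the lines 6 were higher and 6 lower in SW480 vector cells, from IL17RD, the antagonist SEF, at 3.59 to SPRY1 at -2.94. The 6 higher became 3 without parental array 2 or vector array 1, and 4 with array medians subtracted.

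**Figure D4:**
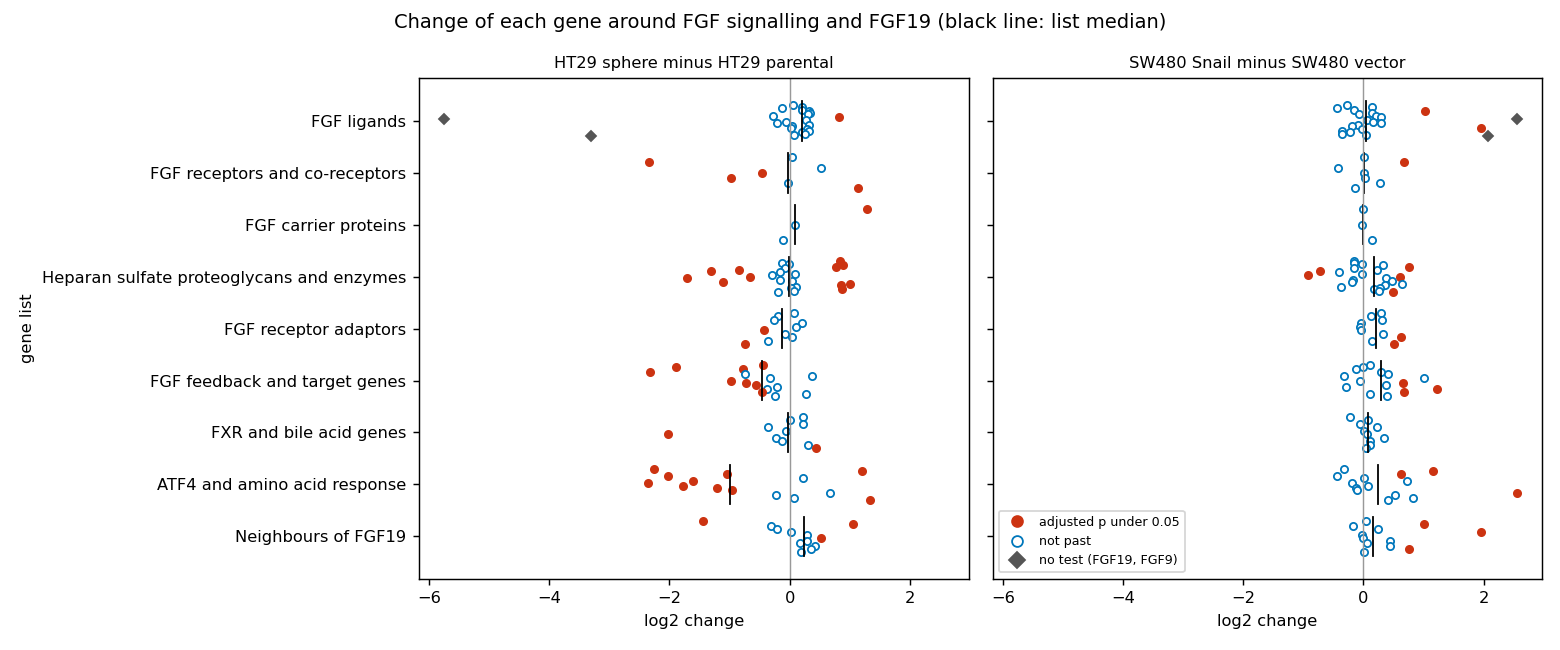
Log2 change of each measured gene (points) of the lists around FGF signalling and FGF19 (rows), in spheres against parental cells (left) and in the SW480 line labelled Snail against vector cells (right); filled points passed a limma adjusted p under 0.05, diamonds are FGF19 and FGF9, and a black line marks the list's median. The feedback and target genes have a median of -0.46 in spheres and 0.29 in the line labelled Snail, and the ATF4 genes -1.0 and 0.24.

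Heparan sulfate proteoglycans and the enzymes that build and trim their chains moved both ways. In spheres 6 of 23 measured rose, 5 fell and 12 did not pass, with a median of -0.01. Of all genes 12.4% were called higher there and 19.0% lower. HS3ST1, a sulfotransferase, fell by 1.70 ± 0.13 (limma adjusted p = 8.4e-06) and the glypican GPC4 by 1.31 ± 0.14 (8.0e-05), while the syndecan SDC1 rose by 0.86 ± 0.12 (0.00043). With Snail as the label, 3 rose and 2 fell, among them GPC1 (0.76; limma adjusted p = 0.0025), the heparanase gene HPSE (-0.92; 0.0024) and GPC4 (-0.72; 0.0081). The rises numbered 1 without vector array 2 or the second array labelled Snail, and 5 without either parental array. The falls numbered 1 without vector array 2 or the first array labelled Snail. Between the lines 7 were higher and 8 lower in SW480 vector cells, with HS3ST1 at -3.82, HS2ST1 at -1.95 and SULF2 at -1.57.

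Of 12 adaptors that link FGF receptors to RAS and phospholipase C, FRS2 and CRK were not measured. Of the 10 measured, 2 fell in spheres and 0 rose, a share near the 19.0% of all genes called lower. They were the RAS exchange factor SOS2 (-0.74 ± 0.14; limma adjusted p = 0.0023) and PLCG1 (-0.43 ± 0.14; 0.039). The count was 1 with quantile normalisation and without parental array 2, either sphere array or either array labelled Snail. In the SW480 line labelled Snail 2 rose and 0 fell, SHC1 (0.63; limma adjusted p = 0.0074) and SOS2 (0.51; 0.032), and 0 to 1 rose without a vector array or an array labelled Snail. In SW480 vector cells 7 were lower than in HT29 parental cells and 1 higher, with GAB1 at -1.39, CRKL at -1.15 and SHC1 at -1.0. Of all genes 23.5% were lower and 22.6% higher. The 7 became 8 with array medians subtracted and 6 with quantile normalisation, and the count also moved when single arrays were left out.

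FGF19 transcription is known to answer to bile acids through FXR and, under stress, to the factor ATF4, so both sets of genes are given. NR1H4, the gene of FXR itself, was not measured. Of 10 measured FXR and bile acid genes, 1 fell in spheres, the FXR target NR0B2, which encodes the repressor SHP (8.85 to 6.82; -2.03 ± 0.29; limma adjusted p = 0.00038). The bile acid exporter subunit SLC51B rose by 0.44 ± 0.12 (limma adjusted p = 0.022), and 8 did not pass. The shares of all genes were 12.4% higher and 19.0% lower. The 1 rise was lost without parental array 2 or sphere array 1, and falls numbered 2 without parental array 1. On the arrays labelled Snail limma called 0 of the 10 (0 also at an unadjusted p under 0.05), and 6 of the 10 lay below every array median on all arrays. Vector cells were lower than parental cells for 4, including FABP6 (-2.68), NR0B2 (-2.43) and RXRA (-1.65), and higher for 1. That 1 became 0 with array medians subtracted, with quantile normalisation and without any array but parental array 1, and 2 without parental array 1.

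Of 14 ATF4 and amino acid response genes, 8 fell in spheres, 2 rose and 4 did not pass, with a median of -1.0. All genes together had 19.0% called lower and 12.4% higher. PHGDH, which starts serine synthesis, fell by 2.37 ± 0.17 (limma adjusted p = 4.8e-06) and the asparagine synthetase gene ASNS by 2.25 ± 0.25 (7.9e-05), whereas the lipoprotein receptor gene VLDLR rose by 1.34 ± 0.14 (5.0e-05). Leaving out each array in turn gave 8 to 10 falls, and 2 to 4 rises, the 4 without parental array 1. On the arrays labelled Snail 3 rose and 0 fell, with a median of 0.24. They were the cystine transporter gene SLC7A11 (2.56 ± 0.29; limma adjusted p = 0.00045), ATF3 (1.16 ± 0.16; 0.0010) and ATF4 itself (0.63 ± 0.12; 0.0072). With either parental array left out, 6 rose and 1 fell. ATF4 fell by 1.04 in spheres and SLC7A11 did not pass there (0.66; limma adjusted p = 0.12). In SW480 vector cells 8 of the 14 were lower than in parental cells and 3 higher, with SLC7A11 at -4.69, ATF3 at -1.73 and ATF4 at -1.46. The 3 higher became 1 without parental array 2 or vector array 2.

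FGF19 lies in a cluster with FGF4 and FGF3 in the RefSeq gene order (GRCh38.p14), next to LTO1 and CCND1, the cyclin D1 gene. The 12 measured neighbours in that order are IGHMBP2, MRGPRF, TPCN2, MYEOV, CCND1 and LTO1 on the side before FGF19, and FGF4, FGF3, ANO1, FADD, PPFIA1 and CTTN after it. None repeated the sphere change of FGF19 in size. CCND1 rose in spheres by 1.05 ± 0.21 (limma adjusted p = 0.0031) and IGHMBP2 by 0.52 (0.0094). ANO1, a chloride channel gene, fell by 1.44 ± 0.17 (limma adjusted p = 0.00012), and 9 of the 12 did not pass. Shares of all genes called in spheres were 12.4% higher and 19.0% lower. The 2 rises became 5 without parental array 1 or with quantile normalisation, and 1 without sphere array 1, and the 1 fall became 2 without sphere array 2. On the arrays labelled Snail FGF3, CCND1 (1.01; limma adjusted p = 0.0089) and PPFIA1 (0.76; 0.0048) rose, and 9 did not pass. Between the lines 5 were higher and 3 lower in SW480 vector cells, CCND1 among the higher at 2.23. The 5 higher became 3 without parental array 2 or vector array 1, or with array medians subtracted.

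Over the 8 arrays the genes most like FGF19 by Pearson correlation, among 5386 genes with an SD of at least 0.5 log2, were CRACD (0.992), B4GALT6 (0.991), PARPBP (0.987), EEFSEC (0.986) and EIF2S3 (0.984). In all, 73 genes reached 0.95. PARPBP, for example, averaged 7.33 for parental cells, 5.13 for spheres, 6.20 for vector cells and 7.42 on the arrays labelled Snail. For FGF9 they were GK5 (0.991), ARL15 (0.988), PHLPP1 (0.986), RCBTB1 (0.986) and SLC27A2 (0.978), and 32 genes reached 0.95. With 4 groups of 2 arrays such values describe the order of 4 group means. Among the members, FGFR3 and FGFR4 correlated at 0.94, FGF18 and FGFR1 at 0.94, and FGFR1 and FGFR3 at -0.98, pairs that follow the difference between the lines.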

How the data were processed

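Expression was measured on 8 Affymetrix arrays with 54675 probe sets. The deposited values are log2 expression values which the authors obtained by RMA (per the submitters' processing notes). Its version is not given in the sources used here. RMA normalises the arrays to a common distribution, so a shift of all genes is not seen. Probe sets were named through the platform annotation: 41091 named 1 gene, 1801 several and 11721 none, besides 62 controls. Entrez identifiers of 41037 matched RefSeq GRCh38.p14, and 0 symbols changed. Group means were fitted to all 8 arrays with limma 3.58.1 in R 4.3.3 (4 residual and 6.10 prior degrees of freedom). Tests were two-sided, with Benjamini-Hochberg adjustment over 19775 genes and a threshold of 0.05. Group values are given ± SD, differences ± SE. With 2 arrays a group, an exact two-sided permutation p is at least 0.333, so none was used. The number of arrays limits the precision.

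The members, gene lists (140 entries, 133 measured) and tests were chosen with earlier results of these data known, so the tests on members are no independent support. The script was tested on simulated data. Of each list, up to 3 genes past the threshold with the lowest adjusted p were named per comparison, of cell type markers only ranges and counts, with examples chosen after their values were seen, and 5 genes most like FGF19 and FGF9. The alternatives were other probe set choices, array scaling, a filter on the dimmest 40% of genes, each line alone, array weights, a variance trend, a replicate block and each array left out. The counts of the gene lists under other scalings and without each array were added after seeing the data.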

Additional observations from a re-analysis of the deposited data

Results flagged for a closer look

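The sphere change is spheres minus parental, and the Snail change is the SW480 line labelled Snail minus vector. They were set against each other for the members, the called genes named from the lists, and the neighbours of FGF19. In this set 29 genes were flagged. Over all genes 27.5% were called in the test of this difference (10.6% higher, 16.9% lower). Other genes named in the text were outside it, among them SNAI1, whose changes differed by 1.06 (limma adjusted p = 0.0036). FGF19 and FGF9 fell on both sphere arrays and were higher on both arrays labelled Snail, and this difference was not tested: the sphere change minus the Snail change was -8.32 log2 for FGF19 and -5.38 for FGF9. Of the other members, limma's test of the difference passed for FGFR2 (-3.01; adjusted p = 2.4e-05), FGFBP1 (1.30; 0.0018), KLB (1.28; 0.0019), FGFR3 (0.94; 0.020) and FGF18 (0.52; 0.046). KLB lay below every array median, and the FGF18 and FGFR3 calls were lost in 7 and 5 of the 8 fits that left out 1 array.

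The test also passed for 22 of the 44 other genes of this set, beside 27.5% of all genes. Most of the 44 were named because they had passed in a comparison, so the 2 shares are not alike. Differences below 0, in which the sphere change was the lower, were found for the feedback and target genes ETV5 (-2.61), ETV1 (-1.90), SPRY1 (-1.61), SPRED1 (-1.39), SPRY2 (-1.13) and ETV4 (-0.66). They were also found for the amino acid response genes PHGDH (-2.18), ASNS (-1.92), SLC7A11 (-1.90) and ATF4 (-1.67), and for the FXR target NR0B2 (-2.10). The heparan sulfate enzymes HS3ST1 (-2.08), HS2ST1 (-1.27) and SULF2 (-0.68) and the adaptors SOS2 (-1.25) and SHC1 (-0.58) followed. So did the ligand FGF3 (-1.93), the intracellular homologue FGF13 (-0.70), the decoy receptor gene FGFRL1 (-1.0) and the neighbour ANO1 (-1.47). Differences above 0 were found for VLDLR (0.94) and HPSE (0.62).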

How the results depend on the processing

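No called change of a tested member, and no change of FGF19 or FGF9, turned its sign under any alternative. FGF19 changed in spheres by -5.95 to -5.56 log2 and between the comparisons by -8.51 to -8.12 when each array was left out in turn. FGF9 changed by -3.72 in spheres, -3.70 between the lines and -5.85 between the comparisons with the mean of its probe sets, and by -4.13, -4.27 and -6.31 with the probe set of largest interquartile range. Leaving out each array gave 1.87 to 2.27 for FGF9 in the line labelled Snail, -3.33 to -2.92 between the lines and -5.59 to -5.18 between the comparisons. Genes past the threshold in the Snail comparison ranged from 1447 to 4087 with each array left out, the 4 lowest being without vector array 1 (1472), vector array 2 (1602) and the arrays labelled Snail (1527 and 1447). Members past the threshold there went from 1 to 0 with either other probe set choice and ranged from 0 to 1 with each array left out. Members whose changes differed went from 5 to 3 without the dimmest 40% of genes, which leaves out FGF2, KLB and FGFBP1, and ranged from 3 to 5 with each array left out. Over the tested members 469 alternative values stayed on their side of the threshold, 36 lost the call and 11 gained it. The cause was not tested.

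Replicate numbers did not pair the arrays: the deviations of same-numbered arrays correlated at -0.06 to 0.06. With the replicate block 6030 genes passed in spheres, 3105 in the Snail comparison, 7177 between the lines and 5265 in the difference, FGFR3 passed in spheres (0.52; limma adjusted p = 0.024), and FGFR4 in spheres (0.051) and the FGF18 difference (0.077) did not. With each line fitted alone, the comparisons between lines were not run.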
